A study of Oryza sativa with 16 samples.

Results

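The 112 probe sets described here were higher in seeds of the rice cultivar Zhonghua 11 (ZH) that had spent 2 days at 14 °C than in seeds of the same age kept at normal temperature, at an early and at a later stage of seed development. They were chosen by measured values. The MAS5 signal of each probe set was put on the scale log2(signal + 16), and a probe set was kept where its mean over the 16 arrays was at least 7 and where 4 differences were each at least 0.7, which is a ratio of 1.62 in signal + 16. The 4 differences were ZH 4D-2DC minus ZH 6D and ZH 10D-2DC minus ZH 12D, each taken within replicate 1 and within replicate 2. Of 57194 probe sets other than controls, 22818 passed the mean and 112 of those passed all 4 differences, so that the upper limit of 300 members was not reached. The same rule turned round, with all 4 differences at or below -0.7, held for 168 probe sets.

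All plants grew in a cycle of 28 °C in the day and 22 °C in the night, and whole seeds were hybridized to the Affymetrix rice array, 2 arrays for each of 8 conditions. HF 4D-2DC were seeds of the cultivar Hanfeng (HF), described as tolerant of low temperature, from plants held at 14 °C for 2 days from 4 days after fertilization (DAF), and HF 4D were HF seeds at 4 DAF. The cold-sensitive ZH was treated in the same way from 4 DAF (ZH 4D-2DC) or from 10 DAF (ZH 10D-2DC). Its seeds at normal temperature were taken at 4 DAF (ZH 4D), 6 DAF (ZH 6D), 10 DAF (ZH 10D) and 12 DAF (ZH 12D). Both cultivars are japonica lines without a transgene, and cold acted on the whole plant and not on the seed alone. HF 4D-2DC seeds were 2 days older than HF 4D seeds, and HF seeds of 6 DAF at normal temperature were not analysed here, so that cold and age cannot be told apart in HF. The study's methods call the arrays of a condition biological replicates, but no source used here says that separate plants were sampled, so p-values below measure only how far these arrays lie apart. In whole seeds, fewer cells of a type and less RNA per cell cannot be told apart.

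Low temperature slows enzymes and membrane transport and stabilizes RNA structure, and plants answer with chaperones, membrane and osmotic adjustment and hormone signaling. The small heat shock proteins hold unfolding proteins in a form that can be refolded, and many of them are also made in maturing seeds without stress. Rice seeds between fertilization and filling pass from cell division through endosperm storage to desiccation tolerance, so that age and temperature can act on the same genes.

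The annotation paired 87 members with 1 gene, for 84 genes, and 25 with none. Of the 87, 26 carried a gene name and the other 61 are given by their locus number, while members without a gene are only described. Members with a named gene were 23.2% of the list, and probe sets with a named gene were 10.4% of the 22818. The members were dimmer than the probe sets around them, with a median mean level of 8.45 on the log2 scale, between 7.04 and 11.9, against 9.16 for all 22818. No sequence is printed, since neither the deposited values nor the annotation given holds any.

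The arrays of replicate 1 had median signals of 85.9 to 172 and those of replicate 2 of 49.8 to 60.1, although all were scaled to the same trimmed mean, and the highest median belonged to HF 4D replicate 1. Differences were therefore taken within a replicate number. The 9 seed storage and allergen protein genes measured, which mark endosperm, differed widely between arrays of the same condition. Their summed signal was 275191 and 284447 in HF 4D-2DC seeds, against 47040 and 204998 in HF 4D seeds. It was 381625 and 185631 in ZH 4D-2DC seeds against 922604 and 237522 in ZH 6D seeds, and 1596589 and 308775 in ZH 10D-2DC seeds against 1170494 and 325478 in ZH 12D seeds. It was 781777 and 338966 in ZH 10D seeds, against 187675 and 10521 in ZH 4D seeds. Storage protein genes thus had signal in every condition, and ZH 4D replicate 2 and HF 4D replicate 1 had the lowest sums. The 7 photosynthesis genes measured, which mark green tissue, summed to 10807 and 42145 in ZH 4D-2DC seeds against 17472 and 64668 in ZH 6D seeds, and to 1708 and 35985 in ZH 10D-2DC seeds against 4131 and 54704 in ZH 12D seeds. Of these 7 genes, 4 were lower in all 4 differences that chose the members and 0 higher (11.3% and 9.29% of all probe sets). No gene of either list was at 0 in a whole condition. The part of these unequal levels in the results below was not tested.

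In the arrays that chose the members, the median difference of the 112 was 1.33 in replicate 1 and 1.24 in replicate 2 for ZH 4D-2DC minus ZH 6D, and 1.39 and 1.40 for ZH 10D-2DC minus ZH 12D. The smallest of the 4 differences was at least 1 for 34 members and at least 1.5 for 3 members, which were HSP18.1, LOC4325912 and TIP4-2. Its median was 0.87. Just inside the limit were OsC3H35 at 0.708, LOC4345822 at 0.705, LOC4338003 at 0.704 and a probe set without a gene at 0.702. Just outside were LOC4336513 at 0.6998, LOC9269271 at 0.698, LOC4331543 at 0.697 and LOC4340355 at 0.694. These values chose the members and are given without a test. The members' median level, log2(signal + 16), was 9.35 and 10.01 in the ZH 10D-2DC arrays that the rule used and 7.68 and 8.17 in the ZH 6D arrays, the highest and the lowest of the 8 conditions.

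Small heat shock proteins, a class of chaperones, gave 3 members. HSP18.1 (LOC4332361), which had the highest smallest difference of the 112, had signals of 597 and 1221 in ZH 4D-2DC seeds, against 20.6 and 320.2 in ZH 6D seeds. At the later stage it had 21806 and 15042 in ZH 10D-2DC seeds, against 3939 and 1188 in ZH 12D seeds. Seeds before the cold were not uniformly low in it, with 270.3 and 963 in ZH 4D seeds and 11741 and 1019 in ZH 10D seeds. HSP17.4 (LOC4332360), its direct neighbour on chromosome 3, had 7455 and 9769 in ZH 10D-2DC seeds, against 1327 and 830.1 in ZH 12D seeds. HSP18.6 (LOC4330933) had 8378 and 10085 in ZH 10D-2DC seeds, against 1982 and 1022 in ZH 12D seeds. Both were closer between the early conditions, where HSP17.4 had 1143 and 1616 in ZH 4D-2DC seeds against 602 and 699 in ZH 6D seeds, and HSP18.6 had 453 and 1567 against 224 and 370.2. A second probe set of HSP18.6, of the kind that may bind related transcripts, was higher in all 4 differences by 0.65 to 2.97, and its smallest difference fell short of the limit.

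The family as a whole was less uniform than these 3 members. Of 15 small heat shock protein genes measured, 6 were higher and 2 lower in all 4 differences, on the brightest probe set of each gene. Of all probe sets 9.29% were higher and 11.3% lower in all 4. At the later stage 10 of these genes were higher and 3 lower in both replicates, where 24.5% and 32.8% of all probe sets were. At the early stage 7 were higher and 6 lower, where 31.9% and 27.6% were. The genes of the 3 members are among the higher ones. Coding sequences within this family are alike, and the second probe set of HSP18.1, of the kind that may bind related transcripts, gave 0.01 and 0.97 at the early stage and 2.23 and 3.49 at the later stage. HSFB2A (LOC4336701), a class B heat stress transcription factor, had 1748 and 1744 in ZH 10D-2DC seeds, against 104 and 174 in ZH 12D seeds. It was the only one of 16 heat stress factor genes in the list, and its second probe set was also higher in all 4 differences. None of 12 genes for HSP90, HSP70, DnaJ and ClpB chaperones was a member.

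Among proteins of RNA silencing, 2 of 24 genes measured were members, and both were Argonautes, the proteins that carry small RNAs to their targets. AGO2 (LOC4336991) had 4023 and 6546 in ZH 4D-2DC seeds, against 1156 and 1476 in ZH 6D seeds. It had 1697 and 5485 in ZH 10D-2DC seeds, against 631 and 1243 in ZH 12D seeds. In both replicates each cold condition lay above its control of the same age and above the seeds taken before the cold, which had 1823 and 2256 (ZH 4D) and 394 and 2266 (ZH 10D). AGO1D (LOC4342138) had 261 and 1729 in ZH 4D-2DC seeds, against 24.6 and 671 in ZH 6D seeds, and replicate 2 was well above replicate 1 in both conditions.

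Transport proteins formed a further group of members. TIP4-2 (LOC4324277), an aquaporin of the vacuolar membrane, had 218 and 1521 in ZH 4D-2DC seeds, against 35.2 and 406 in ZH 6D seeds. It had 279.6 and 1524 in ZH 10D-2DC seeds, against 47.5 and 501 in ZH 12D seeds. It was the only member among 19 aquaporin genes, and its probe set is of the kind that may bind related transcripts. Of the 19 genes, 2 were higher, TIP4-2 among them, and 4 lower in all 4 differences (9.29% and 11.3% of all probe sets). The potassium channel gene AKT1 (LOC4326245) had 636 and 699.9 in ZH 4D-2DC seeds against 318 and 335 in ZH 6D seeds. The potassium transporter gene HAK17 (LOC4347211) had 224 and 585 against 60.1 and 169.9. Of 17 potassium transporter and channel genes, 5 were higher and 0 lower in all 4 differences, where 9.29% and 11.3% of all probe sets were. AKT1 and HAK17 are among the 5, and as members they were chosen by these differences. SUT5 (LOC4329756), a sucrose transporter, had 486 and 152 in ZH 10D-2DC seeds, against 155 and 50.5 in ZH 12D seeds.

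Hormone and stress signaling genes were also present. IAA15 (LOC4337971), an Aux/IAA repressor of the auxin response, had 3100.5 and 9371 in ZH 4D-2DC seeds against 1031 and 4281 in ZH 6D seeds. A second repressor, IAA12 (LOC4333512), differed at the early stage by 2.81 and 0.74 and at the later stage by 2.38 and 0.77. The auxin response factor listed as ARF10 (LOC4336419), a name that another gene of the annotation shares, differed by 2.91 and 1.07 and by 1.04 and 1.20. Of 38 Aux/IAA and ARF genes, 9 were higher and 2 lower in all 4 differences, where 9.29% and 11.3% of all probe sets were. The rule itself placed the 3 members among the 9. The ethylene receptor gene ERS2 (LOC4337850) had 255 and 315 in ZH 4D-2DC seeds against 89.6 and 181 in ZH 6D seeds. SAPK1 (LOC4333017), a kinase of the SnRK2 family activated by osmotic stress, and NH4 (LOC4325758), a relative of the salicylic acid receptor NPR1, had smallest differences of 0.85 and 0.96. NAC071 (LOC4349963), a NAC transcription factor, and OsC3H35 (LOC4338037), a CCCH zinc finger protein, had 0.89 and 0.71. Another probe set of OsC3H35 was lower in replicate 1 at the early stage, at -0.89, and higher in the other differences. Of 10 stress and ABA activated kinase genes, SAPK1 among them, 1 was higher and 2 lower in all 4 differences (9.29% and 11.3% of all probe sets).

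The remaining named members were enzymes and other proteins. CYP71P1 (LOC4351945), the cytochrome P450 that makes serotonin from tryptamine, had 219 and 599 in ZH 4D-2DC seeds against 39.0 and 221 in ZH 6D seeds, and 1016 and 664 in ZH 10D-2DC seeds against 283 and 272 in ZH 12D seeds. UMPS2 (LOC4325740), an enzyme of pyrimidine synthesis, SGR (LOC4347672), which acts in chlorophyll breakdown, and MT1B (LOC4332487), a metal-binding metallothionein, had smallest differences of 1.06, 0.98 and 0.82. On the second probe set of SGR the replicates went opposite ways, with -0.23 and 1.16 at the early stage and -0.07 and 1.36 at the later stage. PEX11-1 (LOC4331408), a factor of peroxisome division, LAC3 (LOC4327522), a laccase, SSII-2 (LOC4330709), a starch synthase, and EXPA16 (LOC4341549), a cell wall expansin, had smallest differences of 0.75, 0.75, 0.71 and 0.71. Starch synthesis genes mostly went the other way. Of 11 measured, 1 was higher and 3 lower in all 4 differences (9.29% and 11.3% of all probe sets). At the early stage 1 was higher and 7 lower in both replicates (31.9% and 27.6%). None of 9 dehydrin, LEA and low temperature induced genes was a member. Yet 9 of them were higher in both replicates of ZH 10D-2DC than of ZH 12D, where 24.5% of all probe sets were. Only 2 were higher in both replicates of ZH 4D-2DC than of ZH 6D, where 31.9% of all probe sets were. None of 54 protein phosphatase 2C genes, 8 AP2/ERF and DREB genes, 7 clock genes, 9 storage and allergen protein genes or 7 photosynthesis genes was a member.

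Among members without a gene name, LOC4326757 was represented by 3 probe sets, all of them members. The first of them had 2838 and 13938 in ZH 4D-2DC seeds, against 821 and 260.2 in ZH 6D seeds. It had 1023 and 7998 in ZH 10D-2DC seeds, against 402 and 261 in ZH 12D seeds. The replicates gave the same direction and very unequal sizes, with differences of 1.77 and 5.66 at the early stage and 1.31 and 4.85 at the later stage. LOC4325912 had 174 and 309.9 in ZH 4D-2DC seeds, against 9.37 and 7.56 in ZH 6D seeds. LOC4329576, LOC4323915, LOC4331944, LOC4343616, LOC4331577 and a probe set without a gene completed the 10 members with the largest smallest difference, which lay between 1.38 and 1.88 over those 10. LOC4335599 had 2 member probe sets. For 20 member genes the array carried more than 1 probe set past the mean filter. Of the 21 other probe sets 8 were higher in all 4 differences, where 9.29% of all probe sets were. The second probe set of LOC4338003 was lower in all 4, at -0.18 to -0.91.

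Few member genes lay next to each other, or with 1 gene between them, in the RefSeq assembly ASM3414082v1. They were HSP18.1 and HSP17.4 on chromosome 3, LOC4343712 and LOC4343713 on chromosome 7, and LOC4332213 and LOC4332215 on chromosome 3.

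Seeds taken at the start of the cold give a second view of the same cold arrays, again as a description, since those arrays chose the members. ZH 4D-2DC minus ZH 4D had a median of 0.72 in replicate 1 and 0.72 in replicate 2 over the members, against 0.00 and 0.00 for all probe sets. ZH 10D-2DC minus ZH 10D had 0.97 and 1.12, against -0.08 and -0.03. Against these earlier seeds, 62 members were higher in both replicates at both stages (10.5% of all probe sets), 10 at the early stage alone (18.3%), 33 at the later stage alone (15.2%) and 7 at neither (56%). The cold arrays in these contrasts chose the members for being high, so nothing is read from the shares. Named members of the first kind were HSP18.1, HSP17.4, HSP18.6, HSFB2A, AGO2, AGO1D, UMPS2, NAC071, SAPK1, IAA15, LAC3, ERS2 and SSII-2, while SGR and IAA12 were among the 7.

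At normal temperature, 69 members were lower in ZH 6D than in ZH 4D in both replicates (31% of all probe sets) and 57 were lower in ZH 12D than in ZH 10D (23.5%), with 35 in both (7.79%). The rule chose members for being low in ZH 6D and ZH 12D, so these counts are partly fixed by it and are given without a test. ARF10 had 167 and 490.4 in ZH 4D-2DC seeds and 8.4 and 225 in ZH 6D seeds, against 299.9 and 862 in ZH 4D seeds, so that the cold-treated seeds lay between the control of their age and the younger seeds. HAK17 and SUT5 were likewise lower in ZH 4D-2DC than in ZH 4D in both replicates, by -0.50 and -0.93 for HAK17 and by -1.15 and -2.63 for SUT5. For 22 members both cold conditions lay above all 4 normal conditions of ZH within both replicates, where 0.684% of all 22818 probe sets did, and the rule used these contrasts. IAA15 and ERS2 were the named genes among the 22.

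HF seeds took no part in the choice of members, and they were compared with limma over all 22818 probe sets on the 8 arrays that the rule had not used. Here 47 of the 112 members (42.0%) were higher in HF 4D-2DC than in HF 4D in both replicates, where 26.9% of all probe sets were. Lower in both were 13 members (11.6%), where 28.8% of all probe sets were, and 52 members went opposite ways. A difference of at least 0.7 in both replicates was found for 19 members (17.0%), where 2.64% of all probe sets reached it, and one of at most -0.7 in both for 2 members, where 5.16% of all did. The members also varied more between probe sets than the rest, with SDs of 1.84 and 0.94 in replicates 1 and 2 against 1.51 and 0.60.

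The replicates were far from equal. The members' median level, log2(signal + 16), was 8.342 and 8.998 in HF 4D-2DC seeds, against 8.956 and 8.404 in HF 4D seeds, so that the order of the conditions turned between replicates. In replicate 2 the members' median difference was 0.58, against 0.00 for all probe sets, and 92 members (82.1%) were higher, where 50.4% of all were. In replicate 1 the median was -0.16, against -0.08, and 54 members (48.2%) were higher, where 47.7% of all were. The shift of the whole list was therefore seen in replicate 2 and not in replicate 1, whose HF 4D array had the highest median signal of the 16. When every array was centred on its median, the median of all probe sets in replicate 1 moved to 0.80 and that of the members to 0.73. Lower in both replicates were then 11 members, where 16.1% of all probe sets were, and higher in both 61, where 38.4% of all were. The 7 photosynthesis genes summed to 24675 and 64854 in HF 4D-2DC seeds against 87573 and 88002 in HF 4D seeds, and 6 of them were lower in both replicates. Their part in the result was not tested.

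At the threshold named in the study's methods, an unadjusted p under 0.05 and over 2-fold, limma called 3 members higher (0.32% of all probe sets) and 2 lower (0.802%) in HF 4D-2DC. None passed after Benjamini-Hochberg adjustment, for members or for any other probe set, and 5 members had an unadjusted p under 0.05. With the replicate number as a block the counts were 9 higher (0.841% of all) and 2 lower (2.29%), again with an adjusted p of 0.90 for each. The 5 called members were named after their values were seen, apart from CYP71P1. LOC4343581 had 537 and 414 in HF 4D-2DC seeds, against 26.2 and 163 in HF 4D seeds, a difference of 2.49 ± 0.88 (SE of the limma fit, n = 2 arrays each, adjusted p = 0.9997). LOC4330405 had 8882 and 6182, against 2019 and 2578, and LOC4329370 had 503 and 921, against 45.2 and 325. The second probe set of LOC4329370 was lower in both replicates, with 167.1 and 350.9 in HF 4D-2DC seeds against 445.1 and 816.1 in HF 4D seeds. That of LOC4343581 was higher in both, with 633.7 and 754.7 against 213.1 and 740.3. CYP71P1 was lower, with 206 and 187 in HF 4D-2DC seeds against 1014 and 611 in HF 4D seeds and a difference of -1.92 ± 0.67 (limma, adjusted p = 0.9997). The call for CYP71P1 was lost without HF 4D-2DC replicate 1 (-1.98) or 2 (-1.86) and without HF 4D replicate 1 (-1.56). LOC4330405 lost it without any 1 of the 4 arrays (1.43 to 1.95), LOC4329370 without either HF 4D-2DC array or HF 4D replicate 1 (1.03 to 2.70), and LOC4343581 without HF 4D-2DC replicate 1 (2.31) or HF 4D replicate 1 (1.45). In the ZH arrays that chose CYP71P1, it was higher after cold than in seeds of the same age.

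The fifth, LOC4343713, rested on 1 array. It had 634 and 4869 in HF 4D-2DC seeds, against 160603 and 3991 in HF 4D seeds, and it was lower in the first replicate and slightly higher in the second. Without HF 4D replicate 1 the difference was -1.17, and without HF 4D-2DC replicate 1 it was -2.38, both short of the call. The call was also lost with the replicate block (unadjusted p = 0.0513, limma), where the 2 lower members were CYP71P1 and LOC4327172. In ZH seeds it had 7118 and 5626 in ZH 4D-2DC against 689.6 and 594 in ZH 6D, and it was much dimmer at the later stage, with 509 and 58.2 in ZH 10D-2DC against 81.4 and 26.0 in ZH 12D. Its neighbour LOC4343712, also a member, kept signals of 51.6 to 906 over the 16 arrays.

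Among the 26 named members, 7 were higher in HF 4D-2DC in both replicates and 7 lower in both, where 26.9% and 28.8% of all probe sets were. The named members thus lay near the shares of all probe sets, and the genes below are given as values only. AGO2 had 4581 and 3967 in HF 4D-2DC seeds, against 1805 and 2259 in HF 4D seeds, so that the arrays of the 2 conditions did not overlap, and its difference was 1.07 ± 0.86 (limma SE, adjusted p = 0.9997). TIP4-2 had 226 and 981, against 78.5 and 537, and LAC3 had 82.6 and 309.8, against 28.9 and 183. These 3 were the named members at 0.7 or more in both replicates, with p-values that missed the threshold. HSP18.1, NAC071, IAA15 and ERS2 were the others that were higher in both, IAA15 by 0.62 and 0.65 and ERS2 by 0.70 and 0.68. The lower 7 were AGO1D, SUT5, CYP71P1, ARF10, NH4, IAA12 and EXPA16, and for SUT5 the values were 72.9 and 94.5 in HF 4D-2DC seeds against 1777 and 95.8 in HF 4D seeds. SUT5 had a mean of 7.085, just past the limit of 7, and it passed only with HF 4D replicate 1, its brightest array. Its direction in HF is therefore not apart from the choice of members. HSP17.4 had 1528 and 736 in HF 4D-2DC seeds against 500.1 and 1608 in HF 4D seeds, and HSP18.6 had 199 and 996 against 274 and 545, so that on these probe sets the replicates of both went opposite ways. The second probe set of HSP18.6 was higher in both replicates, with 583 and 1793 in HF 4D-2DC seeds against 196 and 1009 in HF 4D seeds.

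LOC4326757 had 1596 and 15797 in HF 4D-2DC seeds, against 648 and 1188 in HF 4D seeds, on the first of its probe sets. The other 2 probe sets had 111 and 2475 against 101 and 122, and 958 and 13379 against 762 and 990.4, so that all 3 were higher in both replicates and much higher in replicate 2. LOC4342135 had 1263 and 1627 in HF 4D-2DC seeds, against 328 and 505 in HF 4D seeds, and LOC4338003 had 1208 and 2599.8, against 432 and 920.2. Both were named after their values were seen, and on these probe sets the conditions did not overlap. The second probe set of LOC4338003 was lower in both replicates, with 619 and 296 in HF 4D-2DC seeds against 733 and 489 in HF 4D seeds. Of the 22 members whose cold conditions exceeded all normal ones in ZH, 9 were among the 19 at 0.7 or more in HF. The same overlap was not counted over all probe sets, and the ZH cold arrays chose the members, so nothing is read from it.

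Between the cultivars after the same cold, HF 4D-2DC minus ZH 4D-2DC was below 0 in both replicates for 55 members (29.3% of all probe sets) and above 0 for 14 (22.1%), with medians of -0.30 and -0.62 against -0.02 and -0.09 for all probe sets. The ZH 4D-2DC arrays chose the members for being high, so these counts are given without a test. An exception was a probe set that the annotation pairs with no gene, singled out after its values were seen. It had 2221 and 1712 in HF 4D-2DC seeds and 873 and 837 in HF 4D seeds, while all 12 ZH arrays lay between 6.74 and 155.

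At normal temperature and 4 DAF, the members did not shift one way between cultivars. HF 4D minus ZH 4D had a median of 0.65 in replicate 1 and -0.45 in replicate 2, against 0.08 and -0.13 for all probe sets. In both replicates 19 members were higher (17.0%, against 17.1% of all) and 17 lower (15.2%, against 21.4%), and 76 went opposite ways. At the methods' threshold limma called 3 members higher (0.399% of all) and 2 lower (0.535%), and none passed after adjustment, where 5 had an unadjusted p under 0.05. HSP18.6 was the named gene among them, with 274 and 545 in HF 4D seeds against 60.8 and 87.5 in ZH 4D seeds and a difference of 2.18 ± 0.85 (limma, adjusted p = 0.9999). The probe set without a gene that set HF apart after cold and LOC4338899 were also higher in HF 4D, and 2 other probe sets without a gene were lower. The call for HSP18.6 was lost without HF 4D replicate 2 (1.70), ZH 4D replicate 1 (1.96) or ZH 4D replicate 2 (2.39). On the second probe set of HSP18.6 the replicates went opposite ways, with 196 and 1009 in HF 4D seeds against 297 and 116 in ZH 4D seeds. This comparison shares the HF 4D arrays with the cold comparison in HF and the ZH 4D arrays with that of age.

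With age at normal temperature, members moved both ways. ZH 10D minus ZH 4D had medians of 0.09 and -0.06, against 0.06 and -0.21 for all probe sets, and 35 members (31.3%, against 25.3% of all) were higher in both replicates and 32 (28.6%, against 31.6%) lower. At the methods' threshold limma called 9 members higher (4.06% of all) and 7 lower (2.71%), none passed after adjustment, and 16 had an unadjusted p under 0.05. With the replicate number as a block the counts were 13 higher (6.39% of all) and 9 lower (5.77%), again with none after adjustment. With all 16 arrays in the fit, including those that chose the members, 2 members passed after adjustment, HSP18.6 (limma, adjusted p = 0.0245) and LOC4343713 (adjusted p = 0.0348). Of all 22818 probe sets, 135 passed higher and 30 lower in that fit. The rule chose members whose replicates agreed in the added arrays, so nothing is read from these 2. HSP18.6 had 2369.9 and 2016 in ZH 10D seeds, against 60.8 and 87.5 in ZH 4D seeds, a difference of 4.63 ± 0.85 (limma, adjusted p = 0.147), and the conditions did not overlap. Its second probe set had 4733 and 6208 in ZH 10D seeds against 297 and 116 in ZH 4D seeds. HSP17.4 followed with 2.75 ± 0.97 (adjusted p = 0.577) and HSP18.1 with 2.72 ± 1.15 (adjusted p = 0.712), the second resting on replicate 1, where it differed by 5.36 against 0.08 in replicate 2. Over the 15 small heat shock protein genes the median difference was 2.72, against -0.09 for all probe sets, and 8 were higher at that threshold and 0 lower. LAC3 was the other named member called higher, at 2.41 ± 0.94 (adjusted p = 0.651). HSP18.6 kept its call with any 1 of the 4 arrays left out (4.41 to 4.84). HSP17.4 lost it without ZH 10D replicate 1 (1.69) or ZH 4D replicate 2 (2.09), HSP18.1 without ZH 10D replicate 1 (0.97) or ZH 4D replicate 1 (1.83), and LAC3 without ZH 10D replicate 2 or either ZH 4D array (1.84 to 2.57).

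Called lower in the older seeds were SUT5, with 20.05 and 50.3 in ZH 10D seeds against 188 and 741 in ZH 4D seeds, and ARF10, with 75.8 and 169.6 against 299.9 and 862. Their differences were -3.01 ± 1.24 and -2.01 ± 0.86 (limma, adjusted p = 0.692 and 0.712). The ZH 4D arrays helped SUT5 past the mean filter, where it had 7.085 against a limit of 7, so nothing is read from its call. SUT5 lost the call without either ZH 10D array or ZH 4D replicate 2 (-2.06 to -3.45), and ARF10 without ZH 10D replicate 1 (-1.51) or ZH 4D replicate 2 (-1.28). LOC4343713, named after its values were seen, had 28.5 and 31.1 in ZH 10D seeds against 6468 and 20684 in ZH 4D seeds, a difference of -7.98 ± 1.62 (limma, adjusted p = 0.167). AKT1 and HAK17 had differences of -2.22 ± 1.02 and -3.07 ± 1.37 that missed the threshold (limma, unadjusted p = 0.0591 and 0.0529). In the ZH 4D arrays used here, replicate 2 had the lowest storage protein signal of the 16. The 41 cell cycle and DNA replication genes measured, which mark dividing cells, summed to 26605 and 24346 in ZH 10D seeds against 58307 and 61253 in ZH 4D seeds, and 32 of them were lower in both replicates. The part of these levels in the result was not tested.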

How the data were processed

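Whole seeds of ZH and HF were measured on 16 arrays, 2 for each of 8 conditions. The deposited intensity values were made by the authors with MAS5 per the labels, version not given in the sources used here, and are linear, with a 2% trimmed mean set to 500.0 for each array, where the methods text names GC-RMA. MAS5 values of dim probe sets scatter more than those of GC-RMA, and 2 arrays a condition limit the precision. Controls (187 probe sets) were removed, 16 was added and log2 taken. Gene names are RefSeq synonyms that are not clone names, from an annotation of 57381 probe sets, since nearly all RefSeq symbols are locus numbers. The members and gene lists were chosen with earlier results of these data known. Lists were matched on names and synonyms, and 10 entries whose gene did not belong to the class named were removed after values were seen.

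Members were tested with limma 3.58.1 (R 4.3.3, lmFit and eBayes, two-sided) over 22818 probe sets, with Benjamini-Hochberg adjustment, and the script was tested on simulated data. The fit used the 8 arrays outside the 4 differences of the rule. These 8 still counted in its mean filter, so they were not wholly apart from the choice of members. Of the 3 comparisons, HF 4D minus ZH 4D shares HF 4D with the cold comparison in HF and ZH 4D with the comparison of age. Named were the 20 named members with the largest smallest difference, the 10 members with the largest smallest difference, named members past the methods' threshold, up to 4 members of each functional list, those nearest the limit, and genes with several member probe sets. Same-numbered arrays deviated together, with deviations of replicate 1 from replicate 2 correlating in all 28 pairs of conditions (Pearson's r between 0.143 and 0.698). The fit with the replicate number as a block is therefore also given for the cold comparison in HF and for age. Between cultivars it left the members called at 3 higher and 2 lower, while the shares of all probe sets rose to 1.21% and 1.18%. The alternatives were other pseudocounts, filters, scalings, arrays and limits. Tables were made with Python 3.11.15, pandas 2.3.3 and numpy 2.4.6.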

Additional observations from a re-analysis of the deposited data

Results flagged for a closer look

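AGO1D moved in opposite directions in the 2 cultivars between seeds after cold and seeds at its start. In HF, 4D-2DC minus 4D was -2.51 in replicate 1 and -0.11 in replicate 2, with a mean of -1.31. In ZH it was 0.85 and 0.33, with a mean of 0.59. The difference between the cultivars was not tested, and the ZH 4D-2DC arrays are among those that chose the gene for being high.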

How the results depend on the processing

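The number of members was 112, and it became 73 with median centring (72 of them members), 279 at a limit of 0.5 and 34 at a limit of 1. Removing the cap changed nothing, since 112 probe sets passed. The following counts are of members at the methods' threshold. In HF 4D-2DC minus HF 4D, the 3 higher became 8 with all 16 arrays in the fit, 9 with the replicate block and 8 with quantile normalization and the replicate block. The share of all probe sets called higher also rose, from 0.32% to 0.986%, 0.841% and 1.16%. The 2 lower members became 1 with quantile normalization, with and without the replicate block, and 0 with median centring. The share of all probe sets called lower went from 0.802% to 1.27%, 0.465% and 0.0701%. Leaving out 1 array at a time left 1 array in a condition, so nothing is read from counts of called members in those fits. The members' median difference then lay between -0.005 and 0.46, where it was 0.24 with all arrays. That of all probe sets lay between -0.11 and 0.04, where it was -0.04. In HF 4D minus ZH 4D, the 3 higher became 1 with median centring and the 2 lower 1 with a pseudocount of 64. The shares of all probe sets fell too, from 0.399% to 0.127% higher and from 0.535% to 0.399% lower. With 1 array left out, the members' median difference lay between -0.24 and 0.49, where it was 0.11 with all arrays. In ZH 10D minus ZH 4D, 9 higher and 7 lower became 5 and 3 with median centring, and the higher count was 14 with quantile normalization and the replicate block. The shares of all probe sets went from 4.06% and 2.71% to 2.2% and 1.51%, and the higher share was 6.43%. Leaving out arrays gave 4 to 16 higher, 2 to 11 lower and a median of the members between -0.16 and 0.29, where it was 0.06 with all arrays, so that this median has no stable sign. Each fit without an array left 1 array in a condition, and the shares of all probe sets called moved too. Nothing is therefore read from the counts of those fits. The cause of the moves in counts, shares and medians was not tested, apart from the fewer arrays.

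In alternatives chosen after seeing the data, members at 0.7 or more in both HF replicates were 29 with median centring (4.26% of all probe sets). Those at -0.7 or less were 1 with median centring (2.86% of all probe sets) and 4 with a pseudocount of 1 (5.94%). The counts of 47 higher and 13 lower stayed within 1.5 times under each of the 4 scalings and pseudocounts, but with median centring the shares of all probe sets became 38.4% higher and 16.1% lower, against 26.9% and 28.8%. Over 1092 values of named members under alternatives, 921 kept their side of the threshold or stayed within the replicate spread, 119 moved by more, 36 lost and 16 gained the call, and 0 reversed. HSP18.1 in ZH 10D minus ZH 4D was 0.97 without ZH 10D replicate 1. With 2 arrays a condition the precision is low.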
